A study of Mus musculus with 2 samples.

Results

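R-loop peaks were examined at 10 genes of the Notch pathway: the receptors Notch1, Notch2 and Notch3, the ligands Dll1, Jag1 and Jag2, the DNA-binding factor Rbpj, and the target genes Hes1, Hes5 and Hey1. They were chosen by name and matched by symbol to the mm9 annotation (GENCODE M1), in which all 10 were found among 22367 protein-coding genes, and every peak that overlapped a gene or lay within 2 kb of it was assigned to it. This gave 21 of the 22132 peaks in the list.

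The peaks come from primary neural stem/progenitor cells (NSPCs) of C57BL/6 mice at postnatal day 7, cultured from frontal brain. The cells had been exposed to aphidicolin, a DNA polymerase inhibitor that slows replication, according to the study's methods, since the sample labels name no treatment. In DRIP-seq, DNA is cut with restriction enzymes, an antibody captures RNA:DNA hybrids, and the DNA bound in them is sequenced. The data used here are 1 list of peak positions without signal, score or read count, so the depth behind a peak is unknown, no replicate error or interval can be given, and no difference between conditions was tested. The input library was not analysed here.

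Notch signaling passes information between touching cells. A ligand of the Delta or Jagged type on one cell binds a Notch receptor on its neighbour, the receptor is cut by proteases, and its intracellular domain moves to the nucleus, where it joins the DNA-binding protein encoded by Rbpj and turns on genes of the Hes and Hey families. These repress neuronal differentiation genes, and in the developing brain the pathway is known for keeping neural stem cells undifferentiated. An R-loop is an RNA:DNA hybrid with a displaced DNA strand. It forms most readily where the transcript is rich in G, which is described by the GC skew of the coding strand, (G-C)/(G+C).

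G-rich sequence from 6 of the 21 peaks, 1 for each of 6 genes, is shown as an example of what the peaks contain. For each of these peaks, 1 stretch of 60 bp of the coding strand is given, with runs of at least 3 G in capitals. It is the stretch in which G outnumbered C the most, outside the annotated untranslated regions of any gene under the peak. The stretches were picked for this excess, so it is a description. The 6 peaks were chosen after their values were seen. For every gene shown but Rbpj, the stretch has the largest excess among that gene's peaks, and Dll1 and Hes1 have only 1 peak. Stretches of some other peaks, among them others of Rbpj and Jag1, had a larger excess than some of those shown. Others had a small one, such as those of Notch1 peak 1 (19 G, 11 C) and Notch3 peak 2 (21 G, 15 C). All are from the mm9 build. That of Notch1, on the minus strand at chr2:26359387-26359446, begins 104 bp upstream of the start of its main transcript and holds 34 G and 11 C. That of Notch2 (plus strand, chr3:97944980-97945039) is a repeat of GGGGAAA units with 36 G and 0 C. That of Dll1 (minus strand, chr17:15509039-15509098) holds 37 G and 6 C, and that of Jag1 (minus strand, chr2:136940185-136940244) 33 G and 2 C. That of the first Rbpj peak (plus strand, chr5:53980794-53980853) lies 660 bp upstream of the main start with 38 G and 7 C. That of Hes1 (plus strand, chr16:30066517-30066576) holds 30 G and 6 C.

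Notch1, peak 2: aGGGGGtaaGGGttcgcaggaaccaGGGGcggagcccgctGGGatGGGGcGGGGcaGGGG
Notch2, peak 3: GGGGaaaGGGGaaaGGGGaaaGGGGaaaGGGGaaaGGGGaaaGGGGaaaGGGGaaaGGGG
Dll1, peak 1: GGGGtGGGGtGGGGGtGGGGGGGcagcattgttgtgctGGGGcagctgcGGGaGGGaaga
Jag1, peak 1: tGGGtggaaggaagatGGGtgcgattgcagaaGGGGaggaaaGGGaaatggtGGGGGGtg
Rbpj, peak 1: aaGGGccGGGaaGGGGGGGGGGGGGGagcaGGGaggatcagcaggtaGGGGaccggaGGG
Hes1, peak 1: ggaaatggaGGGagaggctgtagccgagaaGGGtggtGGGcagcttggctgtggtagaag

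An R-loop peak lay within 2 kb of 8 of the 10 genes, all except Jag2 and Hey1. Of all protein-coding genes, 43.1% had a peak at this distance. A peak overlapped the gene itself in 7 of the 10, compared to 39.6% of all protein-coding genes. The difference between both counts is Hes5, whose single peak began 1602 bp past its end. The peaks inside the genes numbered 18, and they covered 32.0 of 417 kb, or 7.67% of the bases, whereas 3.81% of the bases of all protein-coding genes were covered. Both shares pool genes with and without a peak and give long genes the most weight. The longest of the 10 is 137 kb, whereas all protein-coding genes include longer ones, and the shares were not matched for length.

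Longer genes were more often met by a peak, so the counts were also read by length. Notch1, Notch2 and Rbpj, which are at least 50 kb long, all had peaks, as did 61.4% of the 4841 protein-coding genes of that length. Among the 4 genes of 5 to 50 kb, Notch3, Dll1 and Jag1 had peaks and Jag2 had none, and 47.2% of the 11685 genes in this class had one. Of the 3 genes under 5 kb, Hes1 and Hes5 had a peak within 2 kb and Hey1 did not, while 19.6% of 5841 genes had one. With 3 or 4 genes in a class, these counts are a description and were not tested against the share of all genes.

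**Figure D1:**
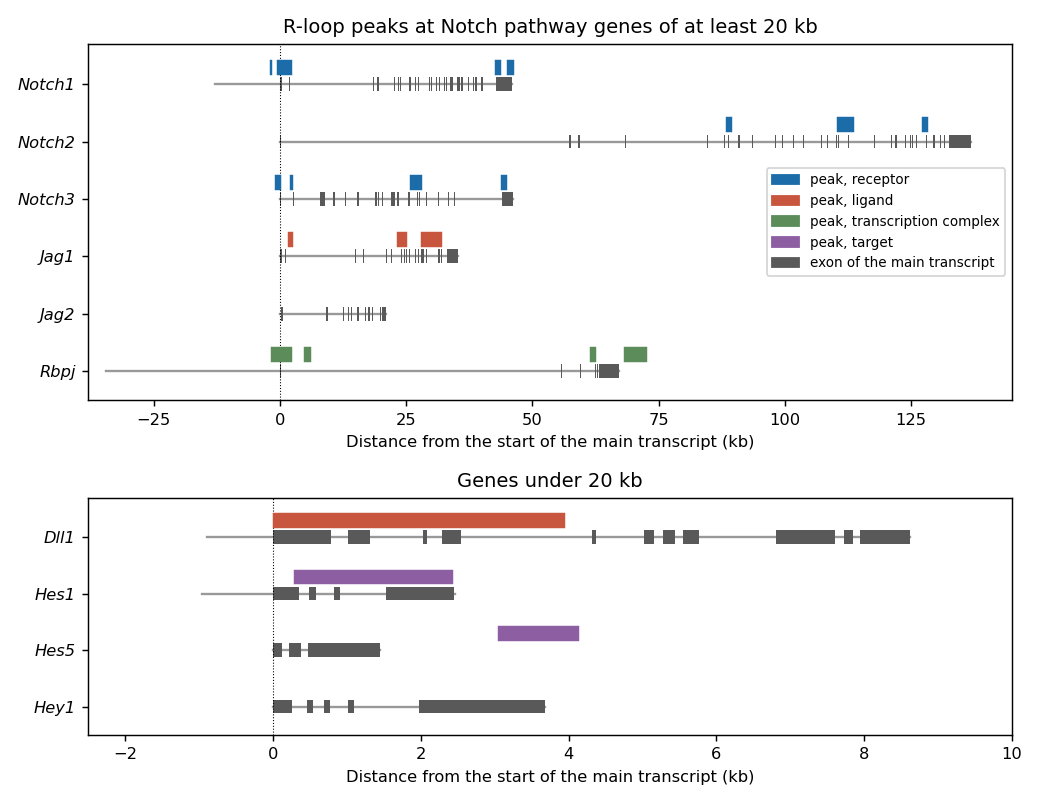
Maps of the 10 genes, with distance in kb from the start of the main transcript (the transcript with the longest coding sequence) on the x axis. Grey lines are the annotated genes, dark boxes the exons of the main transcript, and coloured boxes above them the R-loop peaks. Peaks reach the dotted start line in Notch1, Dll1 and Rbpj, the first peak of Notch3 ends 3 bp before it, and Jag2 and Hey1 have none.

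The 3 Notch receptor genes carried 11 of the 21 peaks. At 58.8, 137 and 46.1 kb, they also made up most of the 417 kb of the 10 genes. Notch1 (ENSMUSG00000026923, minus strand of chromosome 2 from 26313423 to 26372183) encodes the best studied receptor of the family and had 4 peaks inside its limits, which covered 8.53% of its 58.8 kb. The second and widest, 2.82 kb, reached from -686 to 2135 bp relative to the start of the main transcript, so that it contained exons 1 and 2 and all 250 bp upstream of that start. A small peak of 162 bp lay farther upstream, from -2021 to -1860 bp. The other 2 peaks of Notch1 lay at the opposite end of the gene, in and beside exon 34, the last exon. One of 1.11 kb overlapped codons 2051 to 2304 of 2531, which encode part of the intracellular domain. The other, 1.24 kb wide, contained the annotated end of the gene, which made Notch1 the only one of the 10 genes with its end inside a peak, against 10.9% of all protein-coding genes. This last peak also overlapped 0610009E02Rik and Gm13568, lincRNA genes on the opposite strand. DRIP-seq libraries do not record the strand of the hybrid, so the genes on both strands cannot be told apart as its source.

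Notch2 (ENSMUSG00000027878, plus strand of chromosome 3 from 97817461 to 97954290) is the longest of the 10, at 137 kb, and its peaks were placed differently. All 3 lay in the distal part of the gene, the first beginning 88265 bp after the start, and none was found near the promoter. Their widths were 1003, 3100 and 898 bp, and they covered 3.65% of the gene. The midpoints fell in introns 9, 21 and 29, and each peak also overlapped at least 1 exon. The first peak overlapped codons 523 to 561 and the second codons 1097 to 1219 of 2473, in the extracellular EGF-like repeats, and the third codons 1773 to 1828, in the intracellular part. The third peak had the highest GC skew of the 21, 0.252, and contained the GGGGAAA repeat shown above. The next peak began 2052 bp past the end of Notch2 and was thus just outside the distance allowed, whereas the peaks farthest from a gene that were still counted were those of Hes5 at 1602 bp and of Rbpj at 851 bp.

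Notch3 (ENSMUSG00000038146, minus strand of chromosome 17 from 32257765 to 32303825), a receptor known for its role in vascular smooth muscle and in neural stem cell quiescence, had 4 peaks, of which 3 lay inside the gene and covered 7.21% of its 46.1 kb. The first peak, 0.949 kb wide, lay upstream and reached from -951 to -3 bp, ending 3 bp short of the annotated start. Its GC skew on the coding strand was 0.198. The window of 250 bp upstream of the start, of which this peak covered 248 bp, is shown in full because the peak and the start nearly touch there. It is from the minus strand of mm9 chr17:32303826-32304075 and ends at the base before the start.

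Notch3, upstream window: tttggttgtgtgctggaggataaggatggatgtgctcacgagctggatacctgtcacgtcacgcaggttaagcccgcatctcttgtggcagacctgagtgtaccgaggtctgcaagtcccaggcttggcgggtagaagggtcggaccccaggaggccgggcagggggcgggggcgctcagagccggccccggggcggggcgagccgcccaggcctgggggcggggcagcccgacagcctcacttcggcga

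The second Notch3 peak was a narrow one of 0.416 kb in intron 1, beginning 2023 bp after the start, and had the lowest skew of the 21 peaks, -0.263. The third, 2.07 kb around exons 26 and 27, overlapped codons 1580 to 1706 of 2318. Peak 4, of 0.839 kb in exon 33, the last exon, overlapped codons 1973 to 2201, in the intracellular domain. Peaks 3 and 4 also overlapped Gm17276, a lincRNA gene on the opposite strand. Notch1 and Notch3 thus each had a peak at or just before the start of the main transcript and a peak in the last exon, while the peaks of Notch2 met neither.

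The ligand genes differed among themselves. Dll1 (ENSMUSG00000014773, minus strand of chromosome 17 from 15504318 to 15513836), which encodes a Delta-type ligand, had 1 peak of 3.94 kb that covered 41.3% of the gene. It reached from -3 to 3932 bp relative to the main start and contained exons 1 to 4, with codons 1 to 223 of 722, the N-terminal part that binds Notch. Its upstream edge therefore lay almost at the main start, with 3 bp of the upstream window covered. The peak also overlapped A930024N18Rik, a lincRNA gene on the opposite strand.

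Jag1 (ENSMUSG00000027276, minus strand of chromosome 2 from 136907192 to 136942380), which encodes a Jagged ligand, had 3 peaks that covered 17.8% of its 35.2 kb. The first, 0.743 kb, lay in intron 2 and began 1570 bp after the main start. The second, 1.64 kb, overlapped exons 9 to 11, and the third, 3.88 kb, overlapped 8 exons, from exon 16 to 23, with codons 683 to 972 of 1218. The first of these peaks had a GC content of 64.5%, compared to 46.2% and 49.3% for the other 2. Jag2 (ENSMUSG00000002799, minus strand of chromosome 12 from 114146801 to 114167706), the other Jagged ligand of the family, had 0 peaks within 2 kb, and the nearest began 6764 bp upstream of its start. The sequence around the Jag2 start was the most GC rich of the 10 genes, with 77.5% GC within 500 bp on each side, more than at 99.7% of protein-coding genes.

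Rbpj (ENSMUSG00000039191, plus strand of chromosome 5 from 53947018 to 54048684) encodes the DNA-binding protein through which Notch receptors act, and 4 peaks were assigned to it. The annotated gene begins 34436 bp upstream of the start of the main transcript, and the first peak, 3.99 kb, lay around the latter, from -1823 to 2162 bp. It contained the first exon of the main transcript with codons 1 to 46 of 526. The second peak, 1.20 kb in intron 1, began 4788 bp after the main start. The third, 1.15 kb, overlapped exon 9. Peak 4 was the widest of the 21, at 4.48 kb, and lay outside the gene, beginning 851 bp past its end. Peaks inside Rbpj covered 6.24% of its 102 kb, and the GC skew of all 4 peaks was positive, from 0.0578 to 0.194.

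The targets were the shortest genes. Hes1 (ENSMUSG00000022528, plus strand of chromosome 16 from 30064470 to 30067882), a transcriptional repressor that maintains progenitors, had 1 peak of 2.14 kb that covered 62.8% of the gene, the largest share of the 10. The peak began 285 bp after the main start and ended at 2426 bp, overlapping all 4 exons and codons 12 to 282 of 282. Hes5 (ENSMUSG00000048001, plus strand of chromosome 4 from 154335032 to 154336480), a related repressor, had 0% of its length covered, and the peak of 1.08 kb assigned to it overlapped the neighbouring gene Pank4, a member of the pantothenate kinase family on the same strand. This peak had the highest GC content of the 21, 65.3%. Hey1 (ENSMUSG00000040289, minus strand of chromosome 3 from 8663362 to 8667039), a repressor of the Hey family, had the most remote nearest peak, 200939 bp upstream of its start.

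The promoters of Hes1 and Hes5 were searched for GTGGGAA, the core sequence bound by the Rbpj protein, on both strands, since these genes are known as its direct targets. Over the 250 bp upstream of the main start, Hes1 held 1 match, which begins 81 bp upstream, and Hes5 held 2, which begin 226 and 83 bp upstream. The other 8 genes held 0 in this window, and 5.07% of the windows of all protein-coding genes held at least 1. The windows overlapped 0 bp of a peak in Hes1 and Hes5. They are shown in the direction of transcription, with the matches in capitals, a match on the opposite strand reading TTCCCAC. The Hes1 window is the plus strand of mm9 chr16:30065176-30065425 and the Hes5 window that of chr4:154334782-154335031.

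Hes1, upstream window: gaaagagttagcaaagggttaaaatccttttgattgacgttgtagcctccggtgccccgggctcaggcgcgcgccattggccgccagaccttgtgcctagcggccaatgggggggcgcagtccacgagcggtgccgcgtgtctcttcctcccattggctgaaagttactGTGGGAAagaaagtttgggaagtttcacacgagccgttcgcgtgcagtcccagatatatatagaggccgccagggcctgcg
Hes5, upstream window: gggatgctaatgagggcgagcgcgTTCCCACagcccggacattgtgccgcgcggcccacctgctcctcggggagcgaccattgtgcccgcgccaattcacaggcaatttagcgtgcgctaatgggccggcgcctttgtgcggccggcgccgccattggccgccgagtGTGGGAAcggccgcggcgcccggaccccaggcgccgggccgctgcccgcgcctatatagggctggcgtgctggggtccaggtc

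**Figure D2:**
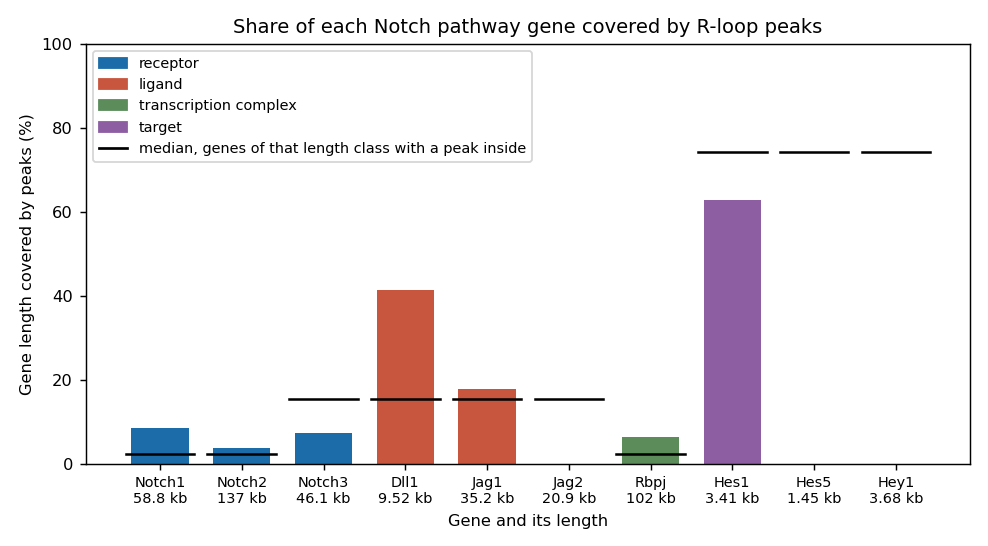
Share of each gene's length covered by R-loop peaks, in percent, with the gene length below each name. Bars are coloured by role, and the black line over each gene is the median of all protein-coding genes of the same length class with a peak inside. Dll1 at 41.3% stood above the line of 15.3%, and Hes1 at 62.8% below that of 74.2%.

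Among protein-coding genes with a peak inside, the median share covered was 74.2% for those under 5 kb, 15.3% for those of 5 to 50 kb and 2.22% for those of at least 50 kb. Notch1, Notch2 and Rbpj exceeded the median of their class, with 8.53, 3.65 and 6.24%. In the middle class, Dll1 and Jag1 exceeded it and Notch3 did not. Hes1 lay below the median of the short genes. The classes are wide, and the share covered was smaller in the classes of longer genes. Dll1, at 9.52 kb, and Notch1, at 58.8 kb, lie near the lower limit of their classes. No closer match by length was made. By number of peaks, Notch3 and Jag1, with 3 peaks inside each, had more than 93.1% of all genes of their class. Genes without a peak count in that class, and both genes, at 46.1 and 35.2 kb, lie in the upper part of its length range.

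Which transcript start is used changes the picture at the 5' ends. None of the 10 outermost gene starts lay inside a peak (0 of 10), compared to 14.9% of protein-coding genes. In Notch1, Dll1, Rbpj and Hes1, however, the annotated gene begins upstream of the main transcript, by 12841, 896, 34436 and 956 bp. A peak contained the start of the main transcript in 3 of the 10 genes, Notch1, Dll1 and Rbpj, and in 15.0% of all protein-coding genes. These 3 are among the 9 genes with at least 60% GC around that start, and for all protein-coding genes with such GC the share was 30.6%. The count of 3 turns on a few bp. The peak of Dll1 begins 3 bp before its main start, and the first peak of Notch3 ends 3 bp before its own. Per the study's methods, the DNA was cut and sonicated into fragments much longer than 3 bp. How exactly the list places peak edges is unknown. The start of any annotated transcript lay inside a peak in 5 of the 10, with Jag1 and Hes1 in addition, and in 19.4% of all protein-coding genes. Notch1 had 2 of its 13 distinct starts in a peak, Dll1 3 of 6, and Hes1 2 of 4.

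**Figure D3:**
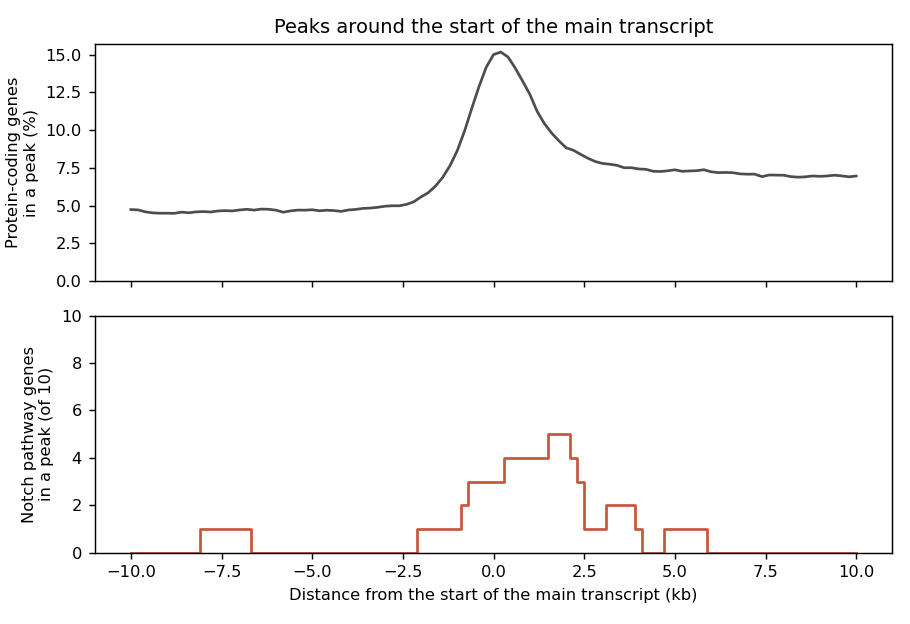
Peaks around the start of the main transcript, with distance in kb on the x axis. The upper panel gives the percentage of all protein-coding genes that lay in a peak at each distance, and the lower panel the number of the 10 Notch pathway genes. The percentage was highest, 15.2%, at 200 bp after the start, and the number was highest, 5, between 1600 and 2000 bp after it.

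At 400 bp upstream of the main start, Notch1, Notch3 and Rbpj lay in a peak. At the main start they were Notch1, Dll1 and Rbpj, and from 1600 to 2000 bp after it 5 genes did, Notch1, Dll1, Jag1, Rbpj and Hes1. Over the latter distances the share of all protein-coding genes fell from 9.82 to 8.84%. With 10 genes, 1 gene is 10% of the set, and this difference in position was not tested.

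The promoters of the 10 genes were mostly GC rich. Within 500 bp on each side of the main start, 9 of the 10 had at least 60% GC, and Hes1 had 45.7%. The median of all protein-coding genes was 55.0%. Among the 6824 protein-coding genes with at least 60% GC there, 67.8% had a peak within 2 kb and 30.6% had the main start inside a peak. Jag2 and Hey1, the genes without a peak, had 77.5 and 70.8% GC and were thus among those with the richest promoters of the 10.

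GC skew over the first 1 kb after the gene start was positive in 8 of the 10 genes, compared to 64.9% of all protein-coding genes. After the main start it was also positive in 8, compared to 65.1%. The highest values after the main start were those of Notch2 (0.125), Notch1 (0.106) and Jag2 (0.0992), followed by Rbpj (0.0946) and Notch3 (0.0884). Jag1, Hey1 and Hes1 had 0.0375, 0.0310 and 0.00816, below the median of all genes, 0.0391. Dll1, whose start lay in a peak, had a negative skew of -0.0251, and Hes5 had the lowest, -0.113. The genes with the main start in a peak (Notch1, Dll1 and Rbpj) thus stood both high and low in this order.

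**Figure D4:**
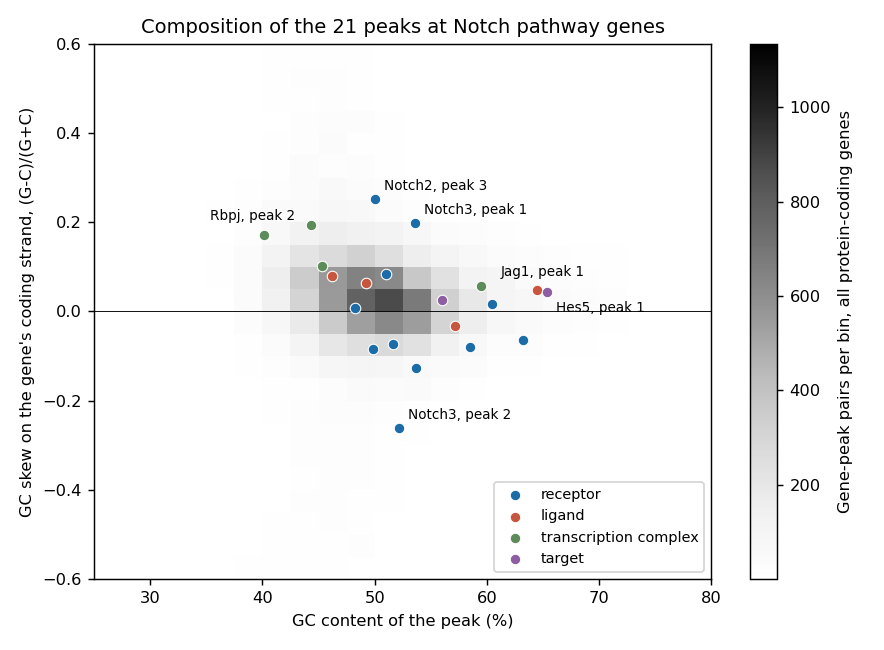
GC content in percent (x axis) and GC skew on the coding strand (y axis) of the 21 peaks, coloured by the role of their gene. Grey squares count all 18164 pairs of a protein-coding gene and a peak overlapping it, whereas 18 of the 21 peaks overlapped their gene. The peaks spread from 40.1% GC in the second Rbpj peak to 65.3% in that of Hes5, and from a skew of -0.263 to 0.252.

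The 21 peaks had a median width of 1.20 kb, compared to 1.32 kb for the whole list. Their median GC content was 52.2%, compared to 49.8% for all pairs of a protein-coding gene and a peak, and their median skew 0.0440, compared to 0.0310. The pairs hold only peaks that overlap the gene, whereas 18 of the 21 did so. Runs of at least 4 G on the coding strand were less frequent than runs of C in the 21 peaks, with means over peaks of 5.50 and 6.42 per kb, whereas over all pairs the means were 4.32 for G and 4.02 for C. Skew was positive in 14 of the 21 (66.7%) and in 64.1% of all pairs. It differed by gene: all peaks of Jag1 and Rbpj had positive skew, whereas in Notch1 and Notch2 it was negative in 2 of 4 and 2 of 3. In Notch3 it was also negative in 2 of 4, with -0.263 and -0.0642. The single peak of Dll1 had -0.0325, and the single peaks of Hes1 and Hes5 had positive skew. The midpoint lay in an intron of the main transcript for 12 peaks, in an exon for 5, upstream for 2 and downstream for 2. An exon of the main transcript was overlapped by 14 of the peaks, and another annotated gene by 5. A site of the 5 restriction enzymes was found no more than 100 bp from 14 of the 42 edges of these peaks (33.3%), compared to 28.3% of all 44264 edges. Whether digestion set these edges was not tested.

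The pathway was also read from a list of 48 genes with roles, of which 38 are outside the 10 genes. Of these 38, 22 (57.9%) had a peak within 2 kb, compared to 43.1% of all protein-coding genes, and 9 had the main start inside a peak, compared to 15.0%. The median length of the 38 was 24.0 kb, and 47.2% of all protein-coding genes of 5 to 50 kb had a peak within 2 kb. The counts by role that follow include the 10 genes, are of few genes each and stand beside the same 43.1%. All 7 genes of the transcription complex had at least 2 peaks. Rbpj, with 4, was joined there by Crebbp with 6, which encodes a histone acetyltransferase, and by Maml3 with 5 and Maml1 with 4, which encode Mastermind coactivators. These genes are long, with a median length of 89.4 kb over the 7, and 61.4% of all protein-coding genes of at least 50 kb had a peak within 2 kb. Maml1, at 36.7 kb, is shorter than that class. All 4 receptor genes had a peak, that of Notch4 lying outside the gene. Of 6 ligand genes, 3 had a peak, among them Dll3 with 1 over 13.7% of its length, while Dlk1 and Dll4 had 0, like Jag2.

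Of 8 target genes, 3 had a peak within 2 kb, and of the 5 outside the 10 genes, 1 had. The median length over the 8 was 3.53 kb, and 19.6% of all protein-coding genes under 5 kb had a peak at this distance. Hey2 and Heyl, at 10.4 and 16.3 kb, are longer than that class. Hes7, a clock gene of somite formation, was covered over 100% of its 3.65 kb, more than Hes1, and Heyl, Hey2 and Nrarp had 0, like Hey1. Among the 9 genes of receptor cleavage, 4 had a peak, with 2 in Aph1a, which encodes a subunit of gamma-secretase. Adam10 and Adam17, which encode the proteases of the first cut, and Psen2 had 0. Of the 5 glycosylation genes, 3 had a peak. Pofut1, which encodes the O-fucosyltransferase of Notch, had 2, and Lfng and Poglut1 had 1 each, that of Lfng covering 90.3% of the gene, whereas Mfng and Rfng had 0. Among the 9 genes of endocytosis and turnover, 6 had a peak. Dtx4 had 5 peaks over 64.2% of its length, Fbxw7, which encodes a ubiquitin ligase subunit, had 3, and Numbl had 1, whereas Numb, Dtx1 and Mib2 had 0.

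A peak list holds no expression, so marker genes can only be listed with or without a peak, which does not settle the identity of the cells. Of 6 markers of neural stem and progenitor cells, 4 (Nes, Sox2, Msi1 and Vim) had the main start inside a peak, and Pax6 and Fabp7 had 0 peaks within 2 kb. Of all protein-coding genes, 15.0% had the main start inside a peak and 43.1% had a peak within 2 kb. Of 3 neuronal markers found in the annotation (Rbfox3, Tubb3, Dcx) and 2 of microglia (Aif1, Cx3cr1), 0 had a peak. Of 3 markers of the oligodendrocyte lineage, Olig2 and Mbp had a peak, and of 2 of endothelium, Pecam1. The part of other cell types in the peaks of the 10 Notch pathway genes was not tested.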

How the data were processed

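DRIP-seq peaks of NSPCs were analysed, held in 1 list under 1 sample label. The paper reports the same number of peaks, 22132, from several DRIP samples of independent biological replicates. The list therefore does not stand for a single replicate. The submitters' processing notes name Trim Galore 0.6.6 and mm9, and per the study's methods reads were trimmed, aligned to NCBI37/mm9 and freed of duplicates, and the authors called peaks with a Hidden Markov Model. Libraries were built from pooled DRIP reactions. How replicates were joined into the deposited list is not given in the sources used here. The deposited values are peak positions in bp, with no score or count.

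Peaks were overlapped (from 1 bp) with GENCODE M1 genes on the mm9 sequence, and widths, GC content, GC skew, runs of G and restriction sites were computed from that sequence (Python 3.11.15, numpy 2.4.6, pysam 0.24.0; figures with matplotlib 3.10.9). The gene start is the outermost annotated 5' end. The main transcript is that with the longest coding sequence. No test was made, since 1 list gives no values for single replicates. The steps were tested on simulated data.

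The members, the gene lists and the tests were chosen with earlier results of these data known. All 10 members are named. Of other pathway genes, up to 3 with the most peaks and up to 3 without a peak (longest first) were named per role, and neighbours were named where a peak of a member overlapped them. Of 17 marker symbols, 16 were found. Alternatives were other distances, peaks of at least 1 kb, peak midpoints, merged peaks, peaks shared with no other gene, coding limits, other starts and other lengths for skew. The main transcript was chosen as an alternative after seeing the data. Results for some items are not reported here.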

Additional observations from a re-analysis of the deposited data

How the results depend on the processing

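The number of the 10 genes with a peak within 2 kb stayed between 7 and 8, and the number with a peak inside was 7, under each alternative run for them. Peaks assigned to the 10 genes ranged from 15, with peaks of at least 1 kb, to 23, with a distance of 5 kb, and pathway genes with a peak from 24 to 34 of 48. The count of starts inside a peak moved most: 0 with the outermost start became 2 for a start within 1 kb of a peak, 5 for any annotated start and, chosen after seeing the data, 3 for the main transcript, because the annotated gene begins upstream of the main transcript in Notch1, Dll1 and Rbpj. The share of bases covered was 6.94% with peaks of at least 1 kb, and between 7.67 and 7.71% otherwise. Positive skew was counted in 7 or 8 genes. For single genes, 55 of 60 alternative counts were within 1.5 times. These include all counts of Jag2 and Hey1, which were 0 under every setting and so could not move by a ratio. The counts beyond 1.5 times were those of Notch2, with 5 peaks at 5 kb, Notch3, with 1 peak of at least 1 kb, and Hes5, with 0 at 0 or 1 kb or by midpoint. No paired analysis was possible because 1 list without separate replicates was analysed. The depth behind the peaks is unknown, so a gene without a peak may carry R-loops below what this list records.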
